A study of Mus musculus with 33 samples.

Results

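Insulin-like growth factor signalling was described through 9 genes chosen by symbol: the ligand Igf1, the receptors Igf1r and Insr, and the binding proteins Igfbp2, Igfbp3, Igfbp4, Igfbp5, Igfbp6 and Igfbp7. They were 9 of the 47729 genes in the count files, and all 9 were among the 18150 genes with enough counts to be tested. RNA came from retinal progenitor cells of C57BL/6J mouse retina at embryonic day 14, cultured and sequenced in bulk as 33 libraries in 11 groups of 3. Day 0 held untreated cells, cone primed cells given COCO protein, and rod primed cells given taurine and retinoic acid, and each induction was sampled again at days 5, 12, 21 and 35. COCO is a secreted antagonist of BMP, TGF-beta and Wnt ligands, and taurine and retinoic acid are factors used to favour rods. Untreated cells were analysed here at day 0 only, so time in culture and treatment cannot be told apart within an arm. The labels do not say whether replicates came from separate animals or cultures, and the p-values then measure only the spread between these libraries, which may be technical.

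IGF1 and IGF2 are secreted peptides that act mainly through the IGF1 receptor, a tyrosine kinase closely related to the insulin receptor, and both receptors signal through IRS and SHC adaptors to the PI3K, AKT, mTOR and FoxO proteins. Binding proteins hold the ligands in the extracellular fluid. They can block or prolong ligand action, and some act on cells without the ligand. IGFBP7 binds IGFs weakly and is often classed as a related protein of the vascular matrix. In the retina, insulin and IGF1 are known as survival and proliferation signals for progenitors and neurons, and Muller glia, vessels and pigment epithelium are known sources of binding proteins.

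Promoter windows from RefSeq on mouse build GRCm38.p6 were at hand for 8 of the 9 genes, all but Insr. The windows of 3 binding proteins are shown over the 250 bases before the start: Igfbp2 and Igfbp3, whose cone to rod difference changed with day, and Igfbp7, which rose by the largest factor in culture. Capitals mark every match, on either strand, to 7 motifs: the TATA box, the GC box, 4 spellings of the half-site bound by nuclear receptors, and the core bound by FoxO proteins. Their letters are given after the windows.
Igfbp2: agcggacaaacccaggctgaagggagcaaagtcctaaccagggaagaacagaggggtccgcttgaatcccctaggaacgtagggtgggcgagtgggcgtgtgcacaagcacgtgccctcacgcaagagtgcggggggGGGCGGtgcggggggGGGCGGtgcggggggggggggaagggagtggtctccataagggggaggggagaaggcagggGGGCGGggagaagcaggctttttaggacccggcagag
Igfbp3: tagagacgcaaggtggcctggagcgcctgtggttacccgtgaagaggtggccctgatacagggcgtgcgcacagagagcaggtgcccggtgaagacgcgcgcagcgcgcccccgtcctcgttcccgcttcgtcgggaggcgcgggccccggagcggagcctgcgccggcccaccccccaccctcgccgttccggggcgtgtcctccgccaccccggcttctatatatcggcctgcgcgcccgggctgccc
Igfbp7: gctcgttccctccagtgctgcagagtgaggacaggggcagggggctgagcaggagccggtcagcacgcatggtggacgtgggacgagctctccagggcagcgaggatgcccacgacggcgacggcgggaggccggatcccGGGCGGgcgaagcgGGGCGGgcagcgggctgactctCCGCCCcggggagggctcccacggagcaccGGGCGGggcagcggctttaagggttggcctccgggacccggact
The Igfbp2 window is chr1:72824230-72824479 on the plus strand, the Igfbp3 window chr11:7213924-7214173 on the minus strand and the Igfbp7 window chr5:77408046-77408295 on the minus strand. The Igfbp2 window held 3 GC boxes and the Igfbp7 window 4, of which 1 lay on the other strand. The Igfbp3 window held none of the 7 motifs, which says only that these letters are not in it. Matches did not overlap each other. Among 32817 mouse windows of this length, the GC box with the letters GGGCGG stood in 32.7% and the TATA box with the letters TATAAA in 12.4%. Of the half-sites, the spelling AGGTCA stood in 14.0% of windows, while the spelling GGGTCA was found in 11.6%. The spelling AGTTCA was found in 11.9% of windows, and the remaining one, GGTTCA, in 8.8%. The FoxO core with the letters GTAAACA was in 3.2%. Retinoic acid receptors bind pairs of such half-sites. A single one stood in the windows of Igf1, Igf1r and Igfbp6, on the other strand for Igf1r. A match is a description of letters and not a measured site. The Igfbp2 window shown is the more upstream of 2 in the table. The bases just after its start were not found in a GENCODE transcript of the gene, while those of the other window, which held 0 matches, were. The shown window ends shortly before the gene start at 72824503, and the bases compared began upstream of that start. The other window, 72825137 to 72825386, lies inside the gene. GC content was 67.2% for Igfbp2, 73.2% for Igfbp3 and 74.0% for Igfbp7, against a median of 52.4% over all windows.

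Each library had between 7511837 and 19166442 counts in genes (median 12985662), and genes took 26.94% to 34.87% of counted reads. Levels are given as CPM, counts scaled to the total of each library after TMM adjustment, and a count of 3 corresponded to 0.174 to 0.407 CPM. Replicates correlated at r = 0.9748 to 0.9951 over genes. The cells were checked against marker lists. All 10 retinal progenitor markers were at 1 CPM or more in the day 0 groups, and 8 or 9 of 10 from day 5 on. From primed cells to day 35, 4 of them rose and 4 fell in cone culture (adjusted p under 0.05), and 3 rose and 3 fell in rod culture. Fgf15 was at 0 in the cone groups of days 21 and 35 and the rod group of day 21. Of 8 cell cycle markers, 7 fell over cone culture and 8 over rod culture by the same test. The 10 photoreceptor markers summed to 951 to 1277 CPM in untreated libraries, 31.4 to 53.3 CPM in cone libraries at day 35 and 26.0 to 31.1 CPM in rod libraries at day 35, with Opn1sw at 0 in the cone group and Nr2e3 and Arr3 at 0 in the rod group. The 7 Muller glia markers summed to 440 to 545 CPM in untreated libraries, 4057 to 5035 CPM in cone and 4937 to 7587 CPM in rod libraries at day 35. Cone primed libraries had sums of 462 to 589 CPM and rod primed libraries 1123 to 1423 CPM. From primed cells to day 35, 6 of the 7 rose and 0 fell in cone culture (median log2 change 3.56). In rod culture 5 rose and 1 fell (median 1.55). Fewer cells of a type and less RNA per cell cannot be told apart in these bulk samples.

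All 9 genes were higher in cone libraries at day 35 than in cone primed libraries, and 8 of 9 were higher in rod libraries at day 35 than in rod primed libraries. The exception was Igf1r in rod culture, at 0.03 ± 0.13 (log2 fold change ± SE, adjusted p = 0.873). A gene was called when edgeR's quasi-likelihood test gave a Benjamini-Hochberg adjusted p under 0.05. Across all genes tested, 57.7% were called over the same span of cone culture and 31.1% were called higher, and the figures for rod culture were 55.6% and 29.4%. The median log2 fold change of the 9 genes was 3.70 in cone culture and 2.53 in rod culture, beside medians of 0.0265 and 0.0355 over all genes. The Igf1r rise in cone culture was small (0.39 ± 0.13, adjusted p = 0.0106) and its call was lost without cone primed replicate 3 (0.0949) or cone day 35 replicate 2 (0.143).

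**Figure D1:**
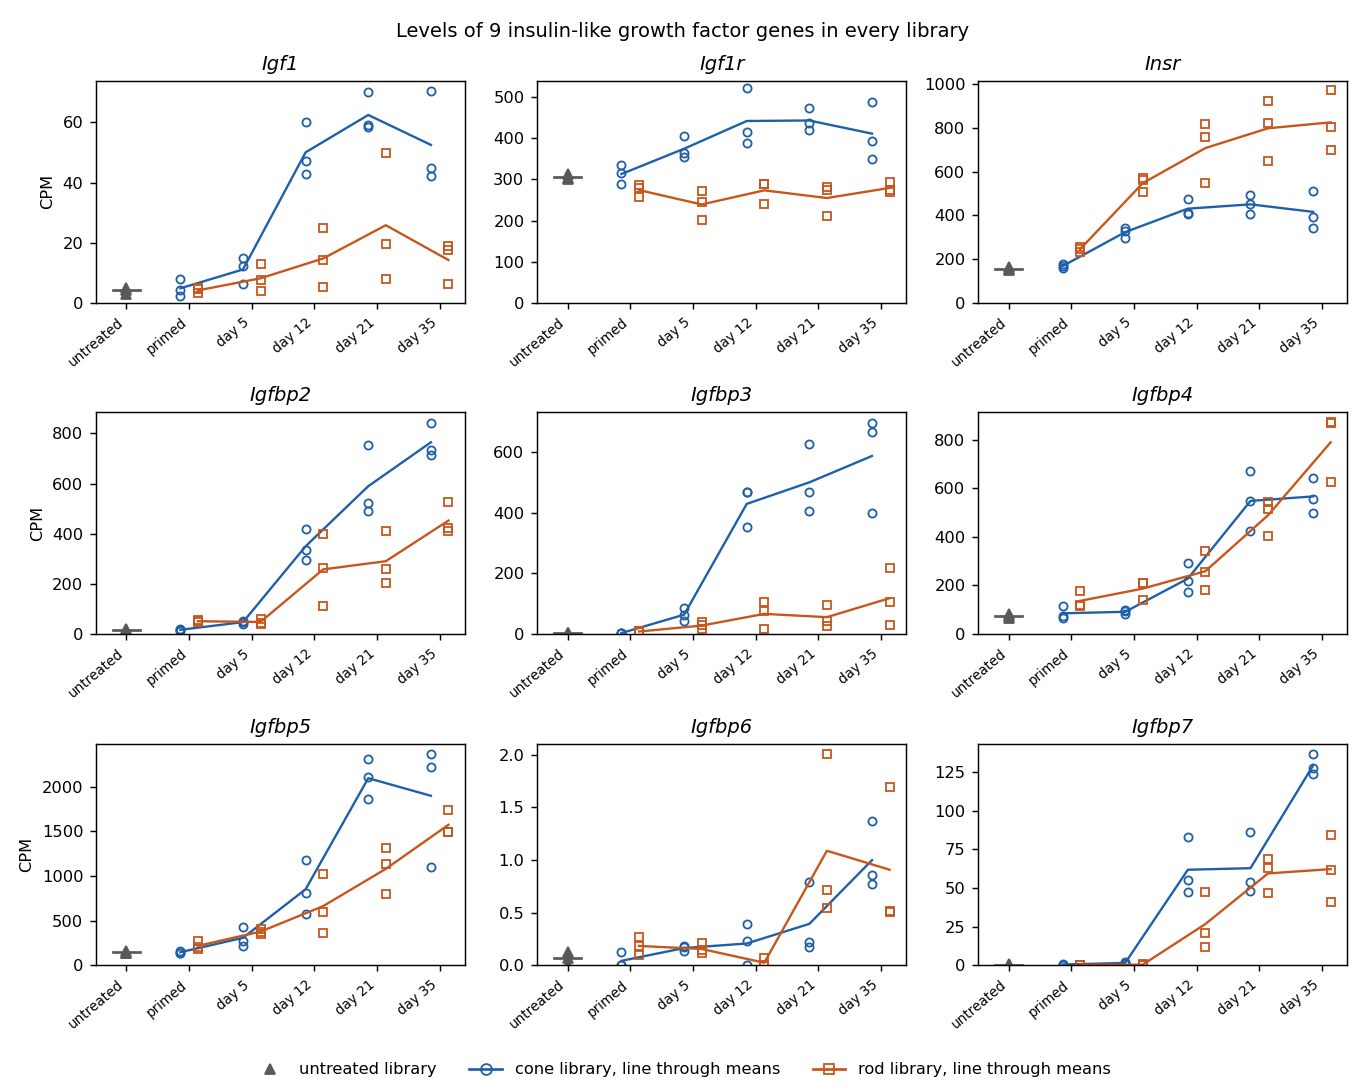
CPM (vertical axis, linear, own scale per panel) of the 9 genes in each of the 33 libraries, by day and arm. Triangles are untreated libraries, circles cone and squares rod libraries, and lines join group means. Insr is higher in the rod libraries and Igf1r in the cone libraries from day 5 on, and the binding proteins climb in both arms.

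Igf1, the ligand (chromosome 10, 87858265 to 87937042, plus strand), was a low transcript at day 0, rose in both arms and was higher in cone culture over the mean of days. Gene positions are those of build GRCm38. Its level was 3.07 to 4.96 CPM in untreated libraries, 2.31 to 7.84 CPM in cone primed and 3.12 to 4.76 CPM in rod primed libraries, and these groups overlapped. At day 5 the arms still overlapped, at 6.26 to 14.9 CPM in cone and 4.08 to 12.9 CPM in rod libraries. At day 12 cone libraries had 42.8, 47.3 and 60.1 CPM and rod libraries 5.28, 14.2 and 24.7 CPM. At day 21 the values were 58.4, 59.0 and 70.1 CPM in cone and 7.95, 19.6 and 49.8 CPM in rod libraries. At day 35 they were 42.3, 44.9 and 70.4 CPM in cone and 6.13, 17.5 and 19.0 CPM in rod libraries. Every cone library was thus above every rod library of its day from day 12 on. Over the mean of days 5 to 35 the log2 cone over rod difference was 1.35 ± 0.26 (adjusted p = 0.000319). By single day it was called at day 12 (1.77 ± 0.53, adjusted p = 0.0309) and day 35 (1.89 ± 0.53, adjusted p = 0.0180) but not at day 21 (1.28 ± 0.52, adjusted p = 0.127). The day 12 call was lost without cone replicate 3 (adjusted p = 0.113), rod replicate 1 (0.102) or rod replicate 2 (0.0884), and in a fit of the compared libraries alone (0.145). The day 35 call was lost without cone replicate 3 (0.0850) or rod replicate 3 (0.105).

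In cone culture Igf1 rose from day 5 to day 12 by 2.18 ± 0.54 on the log2 scale (adjusted p = 0.00177). From primed cells to day 35 it rose by 3.42 ± 0.59 in cone culture (adjusted p = 1.67e-05) and by 1.78 ± 0.59 in rod culture (adjusted p = 0.0131). The rod call was lost without rod primed replicate 2 (0.0558) or rod day 35 replicate 2 (0.0557), and under voom with sample weights (0.0844). Igf1 is made by microglia in many tissues. The summed level of 11 microglia and macrophage markers was 3.45 to 3.60 CPM in untreated libraries, 7.35 to 33.2 CPM in cone and 5.36 to 20.4 CPM in rod libraries at day 12, and 25.1 to 122 CPM in cone and 4.45 to 8.73 CPM in rod libraries at day 35. At day 35, 10 of the 11 markers reached 1 CPM in the cone group and 1 of 11 in the rod group, and 8 of the 9 that could be tested were called higher in cone over the mean of days. From primed cells to day 35 all 9 were called higher in cone culture and 1 in rod culture, and from day 5 to 12 in cone culture, where Igf1 rose, 0 of 9 were called (median log2 change 0.88). Cx3cr1 and Ptprc were at 0 in untreated libraries and no marker was at 0 in the day 35 groups. The cone day 12 library with the highest Igf1, 60.1 CPM, had the lowest marker sum of its group, 7.35 CPM. At day 35 the order was the other way, and the cone library with the highest Igf1, 70.4 CPM, had the highest sum, 122 CPM. The part of these cells in the Igf1 difference between arms was not tested.

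Igf1r and Insr, the 2 receptors of the set, parted by arm in opposite directions. Igf1r (chromosome 7, 67952827 to 68233668, plus strand) encodes the IGF1 receptor, and its level was 300 to 313 CPM in untreated libraries. Cone libraries had 354, 364 and 406 CPM at day 5, 388, 415 and 523 CPM at day 12, 420, 436 and 473 CPM at day 21 and 350, 394 and 489 CPM at day 35. Rod libraries had 201, 244 and 271 CPM at day 5, 241, 289 and 290 CPM at day 12, 210, 273 and 280 CPM at day 21 and 269, 274 and 294 CPM at day 35. No rod library reached the lowest cone library of its day. The log2 cone over rod difference was called on each of these 4 days. It ranged from 0.56 ± 0.13 on day 35 (adjusted p = 0.00414) to 0.80 ± 0.13 on day 21 (adjusted p = 0.000169), with a mean of 0.67 ± 0.06 (adjusted p = 7.82e-09). At day 0 it was 0.19 ± 0.13 (adjusted p = 0.437). The day 35 call was lost without cone replicate 2 (adjusted p = 0.0604), and those of days 12 and 35 in fits of the compared libraries alone (0.0793 and 0.0529).

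Insr (chromosome 8, 3122061 to 3279617, minus strand) encodes the insulin receptor, and its level was 150 to 163 CPM in untreated libraries. It was already higher in rod primed libraries at day 0, at 232, 246 and 257 CPM (0.65 ± 0.15 over untreated, adjusted p = 0.00490). Cone primed libraries had 158, 168 and 177 CPM. Rod libraries reached 508, 563 and 571 CPM at day 5, 547, 758 and 817 CPM at day 12, 649.6, 822 and 923 CPM at day 21 and 699.98, 803 and 973 CPM at day 35. Cone libraries reached 298, 327 and 344 CPM at day 5, 408, 409.5 and 474 CPM at day 12, 406, 450.1 and 494 CPM at day 21 and 343, 391 and 513 CPM at day 35. The groups did not overlap at any day. Insr was lower in the cone arm by the test on each of the 5 days. The log2 difference ranged from -0.55 ± 0.15 on day 0 (adjusted p = 0.0230) to -0.99 ± 0.15 on day 35 (adjusted p = 4.83e-05), and its mean over days 5 to 35 was -0.82 ± 0.07 (adjusted p = 2.55e-09). The day 0 call was lost without cone primed replicate 2 (adjusted p = 0.0517) or 3 (0.102) or rod primed replicate 2 (0.0748) or 3 (0.0730), and the day 12 call in a fit of the compared libraries alone (0.0953). The cone over rod differences at day 0 and the rod priming values share the rod primed libraries. Neither receptor passed the test of a change of the difference with day (adjusted p = 0.135 for Igf1r and 0.554 for Insr).

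Per kilobase of exon, which allows levels of different genes to be compared, Insr stood below Igf1r at the start and above it in rod culture. The ratio of Insr to Igf1r in CPM per kb was 0.602, 0.605 and 0.661 in untreated libraries and 0.647, 0.648 and 0.668 in cone primed libraries. It was 0.990, 1.13 and 1.17 in rod primed libraries, 1.06, 1.28 and 1.36 in cone libraries at day 35 and 3.17, 3.33 and 4.34 in rod libraries at day 35. From day 5 on, cone libraries lay between 0.897 and 1.49 and rod libraries between 2.31 and 5.36, with no overlap. The deposited TPM, another measure per length, gave mean ratios of 1.06 in cone and 2.95 in rod libraries at day 35 and 0.465 in untreated libraries. These TPM follow the counts poorly (r of 0.321 to 0.443). In limma fits on log2 TPM, the single-day cone over rod calls of both receptors were lost.

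**Figure D2:**
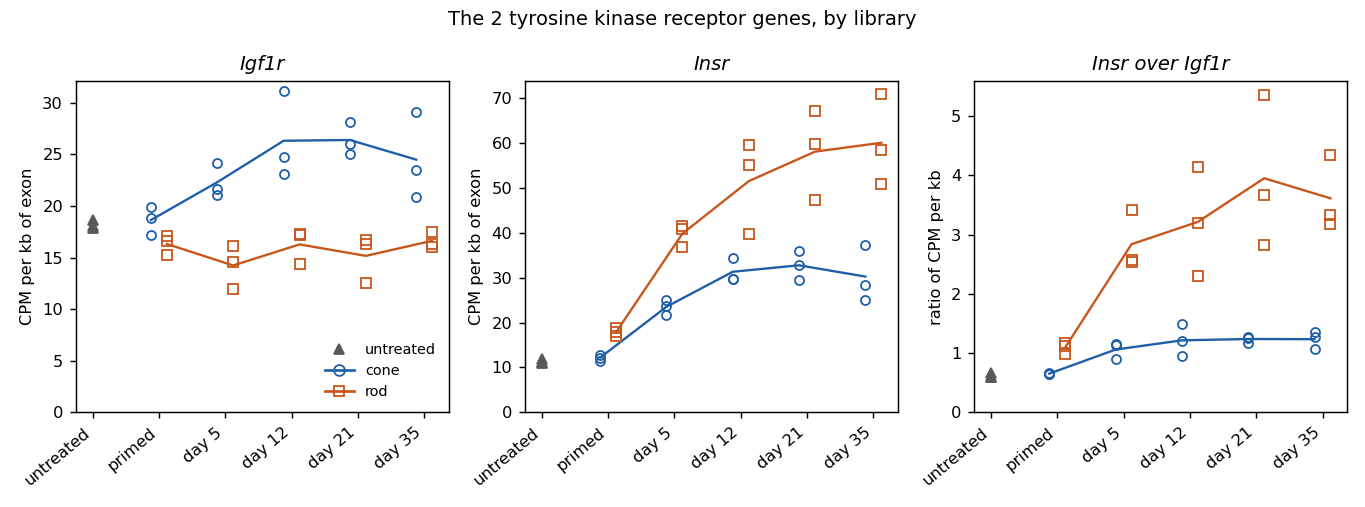
CPM per kb of exon of Igf1r and Insr, and the ratio of Insr to Igf1r (vertical axes, linear from 0), in each library by day and arm, with lines through group means. Rod libraries at days 5 to 35 have ratios of 2.31 to 5.36 and cone libraries 0.897 to 1.49.

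Priming with taurine and retinoic acid raised 3 of the 9 genes, and with COCO none passed the test. Among all genes, 0.0% were called for cone primed over untreated libraries, with 200 genes at an unadjusted p under 0.05, and 0 of the 9 genes had such a p. DESeq2 and voom also called 0 of the 9. For rod primed over untreated libraries 10.3% of all genes were called, 6.71% higher, and the 3 members were Insr, Igfbp2 and Igfbp4, all higher. Igfbp2 went from 15.5, 16.9 and 20.3 CPM to 48.3, 50.4 and 54.2 CPM (1.54 ± 0.31, adjusted p = 0.00135). Igfbp4 went from 66.3, 72.4 and 81.4 CPM to 114, 119 and 177 CPM (0.89 ± 0.24, adjusted p = 0.0174), a call lost without untreated replicate 1 (0.0539) or 2 (0.0567) or rod primed replicate 3 (0.152). Igfbp3, at 2.53 to 3.53 CPM in untreated and 6.24 to 9.37 CPM in rod primed libraries, did not pass (1.43 ± 0.69, adjusted p = 0.203), although the groups did not overlap. Igf1r, at 257 to 287 CPM when rod primed (-0.16 ± 0.13, adjusted p = 0.492), and Igfbp5, at 182 to 268 CPM against 134 to 165 CPM in untreated libraries (0.59 ± 0.31, adjusted p = 0.244), did not pass either, also without overlap. Rod primed and untreated libraries did not overlap for 6 of the 9 members, beside 33.6% of all genes tested. Igf1 (0.02 ± 0.64), Igfbp6 (5 against 2 counts) and Igfbp7 (8 against 14 counts) overlapped between the groups. With rod priming, 6 of 7 Muller glia markers were called higher, at a sum of 1123 to 1423 CPM, as were 5 of 10 progenitor markers (1 lower) and 4 of 8 cell cycle markers. Their part in the changes of Insr, Igfbp2 and Igfbp4 was not tested.

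Between cone and rod, the count of members called was 2 at day 0, 3 at day 5 and 5 at each of days 12, 21 and 35, where 7.27%, 9.28%, 10.1%, 9.0% and 12.3% of all genes were called. Over the mean of days 5 to 35 it was 7 of 9, beside 27.8% of all genes. Of the 7, Igf1, Igf1r, Igfbp2, Igfbp3 and Igfbp7 were higher in cone and Insr and Igfbp4 higher in rod culture. The median log2 difference of the 9 was 0.55. A change of that difference over the days was called for 2 of 9 members, Igfbp2 and Igfbp3, and for 9.22% of all genes. Under voom 5 members were called and on the deposited TPM 0. Cone and rod libraries did not overlap for 6, 5, 5, 6 and 6 of the 9 members at days 0, 5, 12, 21 and 35. Among all genes tested this held for 29.5%, 32.8%, 22.3%, 24.7% and 27.9%, so an absence of overlap was common.

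**Figure D3:**
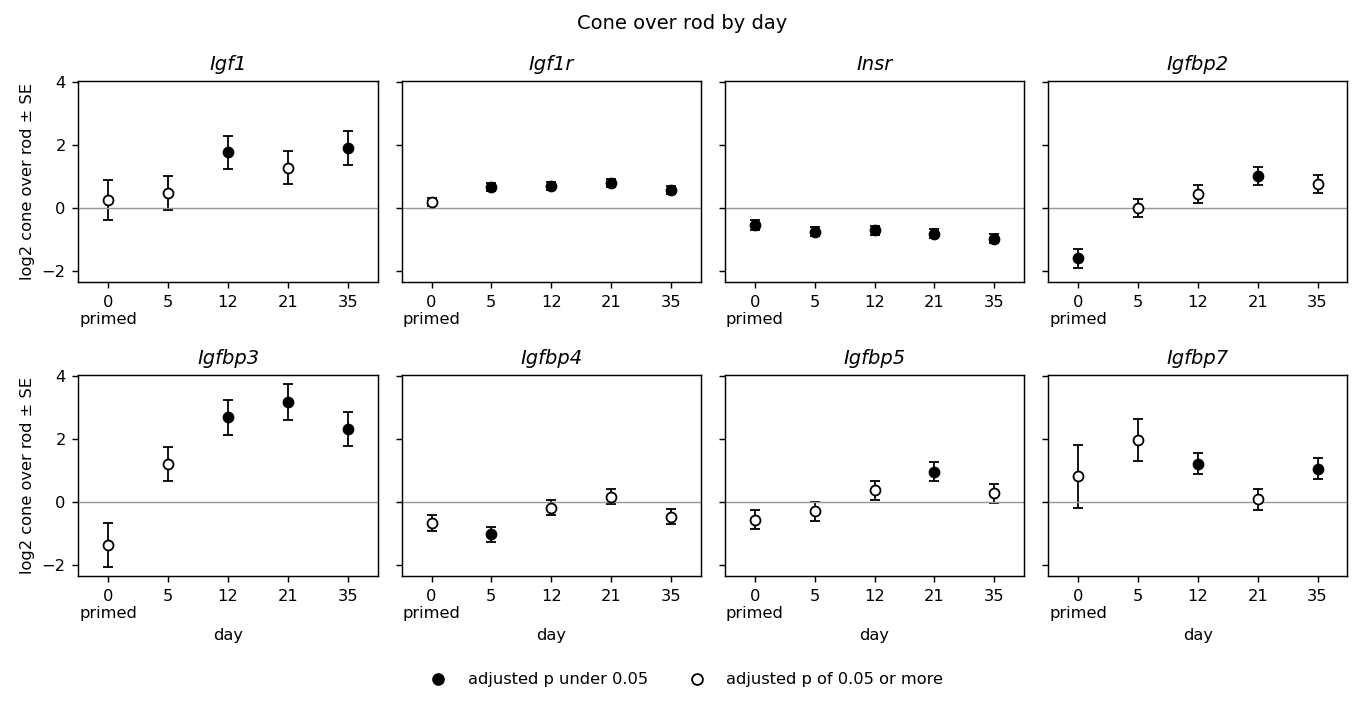
Log2 fold change of cone over rod with its SE (vertical axis, shared) at each day (horizontal axis) for 8 of the 9 genes, with filled points at an adjusted p under 0.05. Igfbp6 is left out for its few counts. Igfbp2 goes from -1.61 at day 0 to 1.02 at day 21 and Igfbp3 from -1.37 to 3.17, while Insr stays between -0.99 and -0.55.

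Igfbp3 had the largest cone over rod difference of the 9 genes over the mean of days. It encodes the main IGF carrier of blood plasma and lies on chromosome 11, 7206086 to 7213923, minus strand. Cone libraries went from 2.72, 2.89 and 3.88 CPM when primed to 43.6, 62.3 and 85.3 CPM at day 5, 351, 468 and 468 CPM at day 12, 405, 469 and 627 CPM at day 21 and 400, 665 and 697 CPM at day 35. Rod libraries went from 6.24, 9.07 and 9.37 CPM to 15.3, 28.5 and 39.3 CPM, then 16.1, 76.6 and 107 CPM, then 25.5, 44.1 and 97.1 CPM, and 30.3, 106 and 218 CPM at day 35. Rod primed libraries were thus all above cone primed ones, and from day 5 on the order was the other way round, without overlap within a day. The log2 difference was not called on day 0 (-1.37 ± 0.71, adjusted p = 0.277) or day 5 (1.21 ± 0.55, adjusted p = 0.179). It was called on day 12 (2.69 ± 0.56, adjusted p = 0.00187), on day 21 (3.17 ± 0.57, adjusted p = 0.000535) and on day 35 (2.31 ± 0.55, adjusted p = 0.00503). Over the mean of days it was 2.35 ± 0.28 (adjusted p = 2.54e-07), and its change with day had an adjusted p of 0.00864. In fits of the compared libraries alone the calls of day 12 (0.0861) and day 35 (0.0610) were lost. The rise over the whole culture was 7.51 ± 0.73 in cone (adjusted p = 1.70e-09) and 3.83 ± 0.62 in rod culture (adjusted p = 8.35e-06).

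Igfbp2 reversed its order between the arms. It encodes the binding protein that dominates in brain fluid and lies on chromosome 1, 72824503 to 72852474, plus strand. Cone primed libraries had 13.4, 16.8 and 20.0 CPM, below the rod primed libraries at 48.3 to 54.2 CPM (-1.61 ± 0.31, adjusted p = 0.00127). At day 5 the arms overlapped, at 40.01 to 53.7 CPM in cone and 41.1 to 59.2 CPM in rod libraries (-0.02 ± 0.29, adjusted p = 0.982). At day 12 cone libraries had 294, 335 and 421 CPM and rod libraries 112, 261 and 399.6 CPM, which overlapped (0.44 ± 0.28, adjusted p = 0.385). At day 21 cone libraries had 491, 522 and 755 CPM and rod libraries 204, 258 and 409 CPM (1.02 ± 0.28, adjusted p = 0.0226). At day 35 they had 716, 735 and 843 CPM against 409, 422 and 526 CPM (0.76 ± 0.28, adjusted p = 0.0834), without overlap. The day 21 call was lost without cone replicate 1 (0.130) or rod replicate 2 (0.137) or 3 (0.0999), and in a fit of the compared libraries alone (0.0526). The change with day had an adjusted p of 0.00109, and the mean over days 5 to 35 was 0.55 ± 0.14 (adjusted p = 0.00450). From primed cells to day 35 Igfbp2 rose by 5.52 ± 0.35 in cone and 3.15 ± 0.31 in rod culture on the log2 scale, and the cone primed start was lower.

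Igfbp5 had the highest mean CPM of the 9 genes at days 21 and 35 in both arms, and Igfbp4 was the one binding protein called higher in rod culture over the mean of days. Igfbp5 lies on chromosome 1, 72857932 to 72874884, minus strand, beside Igfbp2, and encodes a binding protein that also attaches to matrix. Cone libraries had 136, 139 and 162 CPM when primed, 212, 277 and 432 CPM at day 5, 573, 807 and 1173 CPM at day 12, 1866, 2113 and 2304 CPM at day 21 and 1097, 2224 and 2370 CPM at day 35. Rod libraries had 182, 201 and 268 CPM when primed, 352, 376 and 401 CPM at day 5, 360.2, 600.04 and 1025 CPM at day 12, 796, 1131 and 1309 CPM at day 21 and 1487, 1492 and 1738 CPM at day 35. At day 35 the arms overlapped, since cone replicate 2 was below every rod library. Its log2 difference was called at day 21 (0.96 ± 0.31, adjusted p = 0.0480), a call lost without any 1 of the 6 libraries (adjusted p 0.0639 to 0.175) and with RLE scaling (0.0517), and its mean over days 5 to 35 was 0.32 ± 0.15 (adjusted p = 0.117). It rose over the whole culture by 3.70 ± 0.34 in cone and by 2.86 ± 0.33 in rod culture.

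Igfbp4 (chromosome 11, 99041244 to 99054392, plus strand), a carrier that is cut by the protease PAPP-A, was lower in cone than in rod libraries at day 5, at 80.6, 94.2 and 99.3 CPM against 139, 210 and 212 CPM (-1.03 ± 0.24, adjusted p = 0.00597). At day 21 the arms overlapped, at 424 to 671 CPM and 405 to 545 CPM (0.16 ± 0.24, adjusted p = 0.744), and at day 35 cone libraries had 498, 557 and 644 CPM and rod libraries 627, 868 and 873 CPM (-0.48 ± 0.24, adjusted p = 0.211). The mean over days 5 to 35 was -0.38 ± 0.12 (adjusted p = 0.0165). Its change with day did not pass (adjusted p = 0.101). Igfbp4 rose in steps from day 5 to 12 and from day 12 to 21 in cone culture (1.32 ± 0.24 and 1.27 ± 0.24) and from day 12 to 21 in rod culture (0.92 ± 0.24, adjusted p = 0.0142). The rod step was lost without rod day 12 replicate 1 (0.0604) or 2 (0.0756) or rod day 21 replicate 3 (0.0663), and in a fit of the compared libraries alone (0.154).

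Igfbp7 switched on between days 5 and 12 in both arms. It lies on chromosome 5, 77349240 to 77408041, minus strand, and its exons overlap those of Polr2b on the opposite strand, so some reads near that overlap cannot be told apart if the counting ignored strand. None of the other 8 genes had an exon overlapping that of another annotated gene. It had 2 to 9 counts per library at day 0, and 0.851, 1.57 and 2.07 CPM in cone and 0.208, 0.337 and 0.572 CPM in rod libraries at day 5. At day 12 cone libraries had 47.4, 54.8 and 83.0 CPM and rod libraries 11.9, 21.0 and 47.1 CPM, and at day 35 they had 124, 127 and 137 CPM and 41.0, 61.4 and 84.1 CPM. From primed cells to day 35 the ratio of summed counts, scaled to library size, was 257 in cone (95% counting interval 156 to 460) and 228 in rod culture (116 to 529). The step from day 5 to 12 was 5.37 ± 0.43 in cone and 6.11 ± 0.53 in rod culture on the log2 scale.

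Cone exceeded rod for Igfbp7 at day 12 (1.21 ± 0.33, adjusted p = 0.0189) and day 35 (1.05 ± 0.33, adjusted p = 0.0335) but the arms overlapped at day 21, at 48.1 to 86.3 CPM and 46.4 to 68.5 CPM (0.08 ± 0.33, adjusted p = 0.925). The mean over days 5 to 35 was 1.08 ± 0.22 (adjusted p = 0.000487). The day 12 call was lost without cone replicate 3 (0.150) or rod replicate 2 (0.102) or 3 (0.102), and in a fit of the compared libraries alone (0.284). The day 35 call was lost without any of the 3 cone libraries (0.0662 to 0.0867) or without rod replicate 1 (0.186) or 2 (0.0812). The deposited TPM of Igfbp7 do not follow these counts: they average 11.0 in untreated and 3.99 in rod libraries at day 35, where counts rose, and the fit on TPM turned the direction at day 12 (-1.07) and for the average of days 5 to 35 (-0.16).

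Igfbp6 (chromosome 15, 102144362 to 102149511, plus strand), a carrier that prefers IGF2, was near the detection limit, with 0 to 26 counts per library. The 3 cone libraries held 1 count together when primed and 36 at day 35, a scaled ratio of 30.1 (95% counting interval 5.06 to 1220), and the 3 rod libraries held 5 and 35 (ratio 5.02, interval 1.96 to 16.4). The rod call was lost without rod primed replicate 2 (adjusted p = 0.0752) or 3 (0.0531) or rod day 35 replicate 2 (0.156). Cone and rod libraries at day 35 had 0.773, 0.853 and 1.37 CPM and 0.510, 0.516 and 1.70 CPM and overlapped. The intervals cover counting error only.

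Added per kilobase of exon, the 6 binding proteins had higher sums at every later day than in primed cells of the same arm. Their sum was 49.4 to 54.8 CPM per kb in untreated libraries, 48.7 to 63.7 in cone primed and 84.6 to 117 in rod primed libraries. It reached 926.8 to 1289 in cone and 712 to 833 in rod libraries at day 35. At day 5 the arms overlapped, at 93.1 to 145 in cone and 122 to 155 in rod libraries. From day 12 on every cone library was above every rod library of its day. Igfbp5 held 46.7% of the sum in untreated libraries and 27.4% in cone and 33.8% in rod libraries at day 35, while Igfbp2 went from 18.5% to 35.9% and 31.6%. Igfbp3 went from 1.91% to 16.3% in cone and 4.87% in rod culture, and Igfbp4 from 32.2% to 11.1% and 23.1%. By group mean, Igfbp2 was the highest member per kb in cone libraries at days 12 and 35 and in rod libraries at day 12. Igfbp5 was highest in the other 8 groups, and Igfbp6 lowest in all 11. Single libraries departed from this. Igfbp5 was above Igfbp2 in cone day 12 replicate 1 (195 against 181) and cone day 35 replicate 3 (395 against 387). The same held in rod day 12 replicate 2 (171 against 60.7). Igfbp2 was above Igfbp5 in replicate 1 of cone day 21 (409 against 311) and rod day 21 (222 against 133), and in rod day 35 replicate 3 (285 against 248). By mean deposited TPM, Igfbp3 was highest in cone libraries at days 12 and 35 (32.4 and 31.3).

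**Figure D4:**
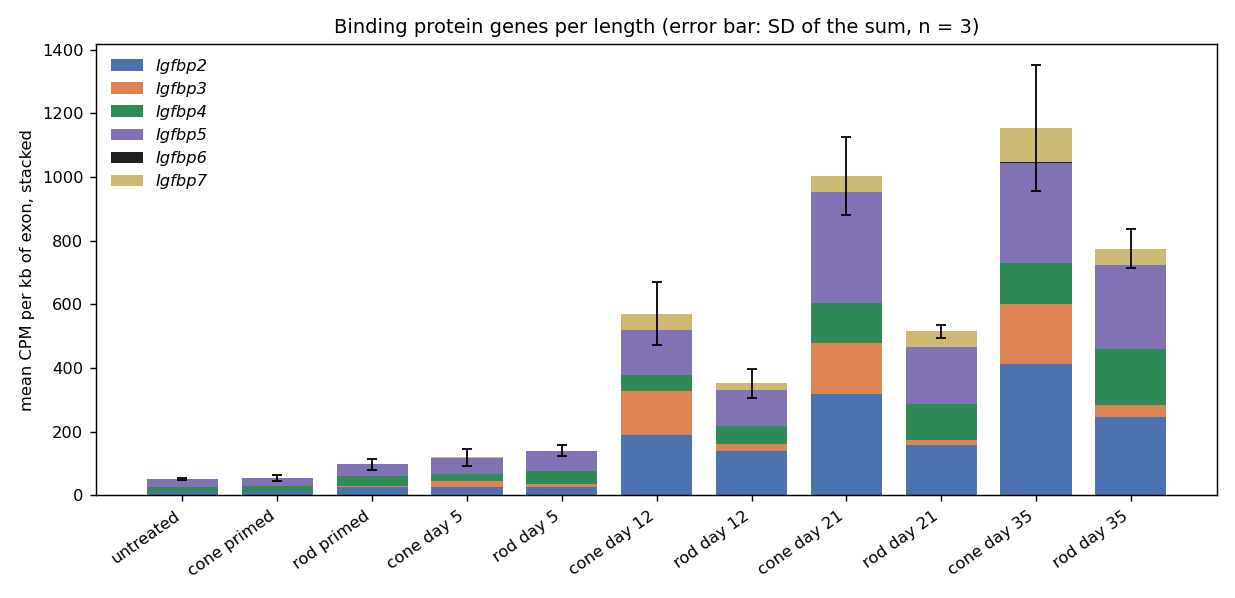
Mean CPM per kb of exon of the 6 binding protein genes, stacked (vertical axis, linear from 0), in the 11 groups, with error bars for the SD of the sum over 3 libraries. The sum goes from 51.5 in untreated cells to 1153 in cone and 775 in rod cells at day 35, and the Igfbp3 block is wide only in the cone bars from day 12 on.

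The steps called between successive days all fell before day 21, which counts calls and not the size of a rise. Igfbp7 in cone culture went from a mean of 62.8 CPM at day 21 to 129 CPM at day 35 without a call. In cone culture 4 members rose from primed cells to day 5 (Insr, Igfbp2, Igfbp3 and Igfbp5), 7 from day 5 to 12 (all but Igf1r and Igfbp6), 2 from day 12 to 21 (Igfbp4 and Igfbp5) and 0 from day 21 to 35. Of all genes 12.2%, 24.6%, 2.53% and 0.54% were called higher in these steps, and 22.3%, 43.2%, 3.36% and 0.915% in either direction. In rod culture 2 rose in the first step (Insr and Igfbp3), 2 in the second (Igfbp2 and Igfbp7), 3 from day 12 to 21 (Igfbp4, Igfbp6 and Igfbp7) and 0 after that. Of all genes 8.76%, 12.7%, 4.88% and 0.667% were called higher in these steps, and 17.5%, 18.3%, 11.2% and 1.54% in either direction. The 7 calls of rod culture became 16 under voom, 6 of them shared. Some of these steps rest on single libraries. For the first step, Igfbp5 in cone culture was lost without cone day 5 replicate 1 (adjusted p = 0.09996), and Igfbp3 in rod culture (1.73 ± 0.60, adjusted p = 0.0469) without any rod primed library (0.0979 to 0.139) or without rod day 5 replicate 1 (0.152) or 2 (0.106), and under voom (0.0808). Insr from day 5 to 12 in cone culture (0.41 ± 0.15, adjusted p = 0.0250) was lost without any day 5 library (0.0686 to 0.181) or day 12 replicate 1 (0.107) or 3 (0.0520). From day 12 to 21, Igfbp5 in cone culture was lost without day 12 replicate 2 (0.108) or 3 (0.0893) or day 21 replicate 1 (0.0568) or 2 (0.0687), and Igfbp7 in rod culture without day 12 replicate 2 (0.176) or 3 (0.0984) or day 21 replicate 1 (0.0847) or 3 (0.0846), or with the compared libraries alone (0.268). For the last step, 2 members had an unadjusted p under 0.05 in each arm, Igfbp6 and Igfbp7 in cone and Igfbp2 and Igfbp4 in rod culture. DESeq2 called 0 of them and voom called 2 in cone and 1 in rod culture. Rod libraries at day 12 spread widely, and Igfbp2 was 112 CPM in replicate 2 against 261 and 400 CPM in the others. That library also had the highest photoreceptor marker sum of its group, 930 CPM against 76.0 and 150 CPM. Without it the rod steps held 8 calls, 5 of them shared with the 7.

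Of 56 other genes of the pathway, 51 could be tested and 12 were called over the mean of days 5 to 35, 9 higher in cone and 3 higher in rod culture, beside 27.8% of all genes. Among other ligands and carriers, Ins1 had no count, Ins2 had 1 count in all 33 libraries, and Igfbp1 and Igfals had at most 4 and 2 counts in a library. Igf2 had 5.45 to 20.2 CPM in untreated and cone primed libraries, 56.7 to 246 CPM in cone and 218 to 882 CPM in rod libraries at day 35, and its mean difference was -0.76 ± 0.36 (adjusted p = 0.121), with a call towards rod on day 12 alone (-2.33 ± 0.76, adjusted p = 0.0485). Igfbpl1, a related gene of early neural tissue, had a mean difference of -0.79 ± 0.40 (adjusted p = 0.145) and fell over cone culture by 4.93 ± 0.86 and over rod culture by 1.62 ± 0.68 on the log2 scale. Igf2r, which clears IGF2 from the cell surface, was higher in cone libraries (0.75 ± 0.10, adjusted p = 2.62e-06), at 399 to 511 CPM against 190 to 379 CPM at day 35. Insrr, an orphan relative of the insulin receptor, had 144 counts or fewer per library and a mean difference of -0.40 ± 1.00 (adjusted p = 0.814), while its change over the days passed (adjusted p = 0.0288).

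Of 6 genes that act on binding proteins, 5 were tested and 3 called over the mean of days, all higher in cone libraries: Pappa, the protease of IGFBP4 and IGFBP5 (1.71 ± 0.17, adjusted p = 1.02e-08), Stc2, an inhibitor of that protease (1.70 ± 0.16, adjusted p = 5.62e-09), and Htra1, a serine protease that cuts IGFBP5 (1.12 ± 0.16, adjusted p = 5.53e-06). Pappa was at 63.3 to 75.3 CPM in cone and 13.8 to 24.2 CPM in rod libraries at day 35. Of 3 IGF2 mRNA-binding proteins, Igf2bp3, known from fetal tissue, was called higher in cone libraries (1.29 ± 0.13, adjusted p = 1.14e-08), and all 3 fell over both cultures. Of 12 receptor adaptors, Shc1 (0.42 ± 0.09) and Gab1 (0.23 ± 0.06) were higher in cone and the phosphatase gene Ptpn1 (-0.14 ± 0.05, adjusted p = 0.0454) higher in rod culture, the last a call lost with 1 library left out (0.0934). Of 15 genes of the PI3K, AKT and FoxO group, Foxo1 was higher in cone (0.45 ± 0.06) and Gsk3b (-0.12 ± 0.04) higher in rod culture, and of 12 mTOR genes only Eif4ebp1, a repressor of translation, was called (0.83 ± 0.13).

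Likeness to other genes was described by Pearson's r of log2 CPM over the 33 libraries, which share day of culture, so high values are common and carry no test. For Igf1 the 3 most alike genes were Fgfr3 (0.898), Sdk2 (0.897) and Col16a1 (0.895), and for Igf1r they were Rgs8 (0.854), Lurap1l (0.851) and Pcp4l1 (0.844). Insr was most like Sox6 (0.967), Phkb (0.962) and Map3k5 (0.959). Igfbp2 was most like Efemp2 (0.987), Tcn2 and Kif1c (both 0.986), and Igfbp3 most like Rgma (0.951), Slc14a1 (0.948) and Col8a1 (0.946). For Igfbp4 these genes were Plpp3 (0.982), Aldh2 (0.971) and Pla2g4a (0.967), and for Igfbp5 Mrc2 (0.968), Igsf10 (0.962) and Fkbp14 (0.960). Igfbp6 stood beside Spon2 (0.840), Isyna1 (0.824) and Smad5 (0.806), and Igfbp7 beside the actin-related genes Actn1 (0.985) and Tpm1 (0.984) and the growth factor gene Hbegf (0.983). Within the set, the highest value was 0.950 for Igfbp2 with Igfbp7 and the lowest -0.196 for Igf1r with Insr.

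Markers of connective and vessel wall cells were also higher at day 35 than at day 0. The 10 mesenchyme markers summed to 4.75 to 25.7 CPM in untreated libraries, 800 to 4743 CPM in cone and 448 to 1027 CPM in rod libraries at day 35, with no marker at 0 in these 3 groups, and 6 were called higher and 2 lower in cone over the mean of days. The 7 pericyte and smooth muscle markers, of which 6 were tested, summed to 2.05 to 2.92 CPM in untreated libraries, 1490 to 2015 CPM in cone and 772 to 1720 CPM in rod libraries at day 35, with 3 called higher in cone. In the 3 rod libraries at day 12 that sum was 225, 389 and 817 CPM and Igfbp7 11.9, 21.0 and 47.1 CPM in the same order. Kcnj8 of this list was at 0 in both primed groups and in both arms at days 5, 12 and 21. For Igfbp3, the 3 cone libraries at day 12 had 351 to 468 CPM at mesenchyme sums of 442 to 572 CPM, and the rod library with the highest sum, 1027 CPM at day 35, had 218 CPM. The other rod libraries of day 35 had 30.3 and 106 CPM at sums of 486 and 448 CPM. Cone libraries at day 35 had 400, 697 and 665 CPM at sums of 800, 3757 and 4743 CPM. Of 7 endothelial markers 4 were tested, and from primed cells to day 35 3 were called higher and 1 lower in cone culture and 2 higher and 1 lower in rod culture. Their sum, 320 to 375 CPM in untreated, 206 to 291 CPM in cone and 140 to 217 CPM in rod libraries at day 35, was mostly Kdr in untreated libraries (318 to 374 CPM), which progenitors also express, and Cdh5 was at 0 there. Cldn5 was at 0 in both day 35 groups. Of 6 astrocyte markers, 5 were called higher and 1 lower over each culture (median log2 change 4.96 in cone and 4.69 in rod). These medians start near 0, since 1 of the 6 reached 1 CPM in the cone primed group and 2 in the rod primed group. Their sum changed much less, from 189 to 293 CPM in cone primed to 303 to 375 CPM in cone libraries at day 35. In rod culture it went from 207 to 332 CPM when primed to 309 to 421 CPM at day 35. Of 7 pigment epithelium markers 3 were tested, all called higher in cone over the mean of days (median 1.83), at summed levels of 25.0 to 37.7 CPM in cone and 10.8 to 13.2 CPM in rod libraries at day 35, with Rpe65 and Tyr at 0 in the latter. The part of these cell types in the binding protein levels was not tested.

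**Figure D5:**
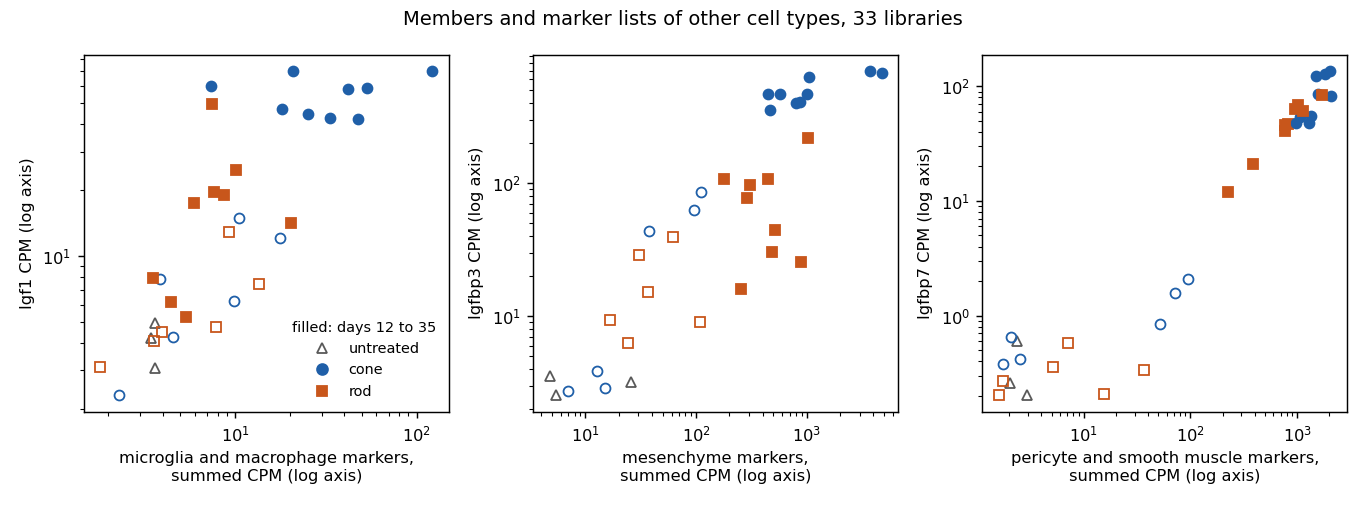
Igf1, Igfbp3 and Igfbp7 in CPM (vertical axes, log) against the summed CPM of microglia and macrophage, mesenchyme, and pericyte and smooth muscle markers (horizontal axes, log), 1 point per library, filled for days 12 to 35. Igfbp7 is at 11.9 CPM or more only in libraries whose pericyte and smooth muscle sum is 225 CPM or more, while Igfbp3 is 351 to 697 CPM in the filled cone points and 16.1 to 218 CPM in the filled rod points.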

How the data were processed

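Bulk RNA sequencing of 33 libraries was analysed, 3 in each of 11 groups taken from the labels. The submitters' processing notes name HISAT2, StringTie and HTSeq and the genome build GRCm38, without versions or settings, and whether counting used strand is not given in the sources used here. The deposited count files hold unnormalised read counts per gene with 5 summary lines, left out of library sizes. The TPM deposited by the authors, per the file headers, served only as an alternative: over genes above 200 counts their r with counts on a log2 scale was 0.321 to 0.443, and 14.23% to 23.64% of such genes were listed at 0.

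Genes passing filterByExpr (minimum count 10), 18150 in all, were scaled by TMM and fitted in 1 quasi-likelihood model of all libraries (edgeR 4.0.16, limma 3.58.1, R 4.3.3). The Benjamini-Hochberg adjustment ran over all genes tested within a comparison, at a threshold of 0.05. A change of the cone over rod difference across the 5 days was tested by F with 4 degrees of freedom. On simulated counts, 45% of 2-fold and 76% of 4-fold changes of cone over rod at day 5 were recovered, all in the right direction, among 17993 genes tested. Levels per length used CPM per kb of the GENCODE M21 exon union, chosen after seeing that TPM and counts disagreed. Positions of 40819 genes, the 9 included, were the same in that release.

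Alternatives were RLE scaling, no filter, DESeq2 1.42.0, voom with sample quality weights, the compared libraries alone, log2 TPM with pseudocounts of 1 and 0.1, the replicate number as a block and each library left out. The 9 genes, the lists and the tests were chosen with earlier results of these data known. The 9 genes were to be named in every comparison, and those without a value in the text are within its counts. Of 56 other pathway genes, every ligand, receptor and carrier is named, and in each role the 2 largest rises and 2 largest falls called over the mean of days, except 1 result that is not reported here. For likeness, the 3 genes with the highest r are named, where the mean log2 CPM reached 1 and the symbol was not a Gm or Rik clone name. Python 3.11.15 (pandas 2.3.3, numpy 2.4.6, matplotlib 3.10.9, scipy 1.17.1) made the tables and figures.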

Additional observations from a re-analysis of the deposited data

Results flagged for a closer look

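In 2 genes the cone minus rod difference itself changed over the 5 days by the F test of edgeR, against 5 under voom and 0 on the deposited TPM. For Igfbp2 the adjusted p was 0.00109, and 0.00620 at most with 1 library left out. Its cone libraries were below the rod libraries when primed and above them at days 21 and 35. For Igfbp3 the adjusted p was 0.00864, and 0.0307 at most with 1 library left out. The order of its libraries between the arms turned in the same way between priming and day 5. The Igfbp3 difference was called neither when primed nor at day 5.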

How the results depend on the processing

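Of 69 called member values, 69 kept their call with DESeq2, 69 with no filter, 68 with RLE scaling, 67 under voom and 56 of 66 with the compared libraries alone. None of these settings turned a direction, and the median over all genes moved by at most 0.0361 with RLE scaling. The deposited TPM kept 21 calls at a pseudocount of 1 and 16 at 0.1. With 1 library left out, 51 values kept their call in every fit. For priming, 3 member calls became 5 with the compared libraries alone and 0 and 0 on TPM (pseudocount 1 and 0.1), and 2 to 3 with a library left out. For cone over rod by day, 20 became 2 and 0 on TPM and 18 to 21 with a library out. Over the mean of days, 7 became 3 and 3 on TPM and 7 to 8 with a library out. For the change with day, 2 became 5 under voom, 0 and 0 on TPM and 2 to 3 with a library out. For the steps of cone culture, 13 became 7 and 5 on TPM and 11 to 13 with a library out, and for those of rod culture, 7 became 16 under voom, 3 and 3 on TPM and 5 to 8 with a library out. From primed cells to day 35, 9 in cone became 4 and 4 on TPM and 8 to 9 with a library out, and 8 in rod became 5 and 5 on TPM and 6 to 8 with a library out. On TPM the direction turned for Igf1r over cone culture (-0.0547 and -0.0707), Igfbp2 with rod priming (-0.14 at a pseudocount of 1), and Igfbp7 for cone over rod at day 12 (-1.07 and -1.24) and over the mean of days (-0.16 and -0.15), for the step from day 5 to 12 in cone (-0.97 and -1.13) and rod culture (-0.0461 and -0.0423) and from day 12 to 21 in rod culture (-0.25 and -0.27), and the cause was not tested. The replicate number as a block left 67 of 69 calls. It ended those of Igfbp5 at day 21 (adjusted p = 0.0569) and Igfbp3 in rod culture to day 5 (0.0523). The deviations of same-numbered samples had all 3 correlations over 0.1 in 0 of 17 comparisons (median 0.0201, range -0.226 to 0.513). The highest value was that of replicate 2 for cone over rod at day 12. What the replicate number marks cannot be told from these values. Lengths implied by the deposited FPKM were not run. Igfbp6, at 0 to 26 counts, is limited by depth.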
